A study of Homo sapiens with 4 samples.

Results

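The genes described here are 5 genes that make, move or break down haem, namely ALAS1, FECH, ABCB6, SLC48A1 and BLVRB, and the data are the sites bound by the transcription factor BACH1 around them. A BACH1 site belonged to a gene when its summit, the position of highest signal in the peak, lay in a window of 50 kb on each side of the gene on hg19. The windows held 17 of the 13661 rows of the 2 deposited peak lists, with 12 of 10246 in Calu3 and 5 of 3415 in 16HBE14o-. Calu3 is a human lung adenocarcinoma line and 16HBE14o- a human bronchial epithelial line. Both grew in DMEM with 10% serum, and the labels name no treatment or genetic change. BACH1 was precipitated from 2 replicates per line with the same rabbit antibody. The authors combined each pair into 1 list by the irreproducible discovery rate, a method that scores how consistently peaks rank between replicates. With 1 pooled list per line there is no replicate spread, so no difference between the lines could be tested. Peak lists hold no expression, so the identity of the lines was not checked against marker genes.

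Haem is built in a chain of steps that starts and ends in the mitochondrion, is carried across membranes by transporters, and is opened by haem oxygenase to biliverdin, iron and carbon monoxide. BACH1 is a basic leucine zipper repressor that pairs with small MAF proteins on antioxidant response elements. It binds haem itself, and haem binding takes it off its targets and leads to its export and breakdown. Genes that handle haem and iron are thus classical places to look for BACH1.

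BACH1 peaks lay near all 5 genes in Calu3 and near 3 of them, FECH, ABCB6 and SLC48A1, in 16HBE14o-. FECH, ABCB6 and SLC48A1 each had a strong site, in the top 2.55% of the Calu3 list and the top 12.3% of the 16HBE14o- list, at the same position in both lines. ABCB6 had a further shared site 34.1 kb upstream of the gene. The rows near ALAS1 and BLVRB were weaker and were found in the Calu3 list alone. For comparison, 27.8% of 24423 consecutive 120 kb tiles of the genome held a Calu3 summit, 10.4% held one of 16HBE14o-, and 7.28% held both. A summit in the strongest 10% of both lists was present in 2 of the 5 windows, those of ABCB6 and SLC48A1, and in 0.966% of the tiles. The windows are centred on genes and the tiles are not, and the genes were chosen with earlier results of these data known, so these shares describe the background only.

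**Figure D1:**
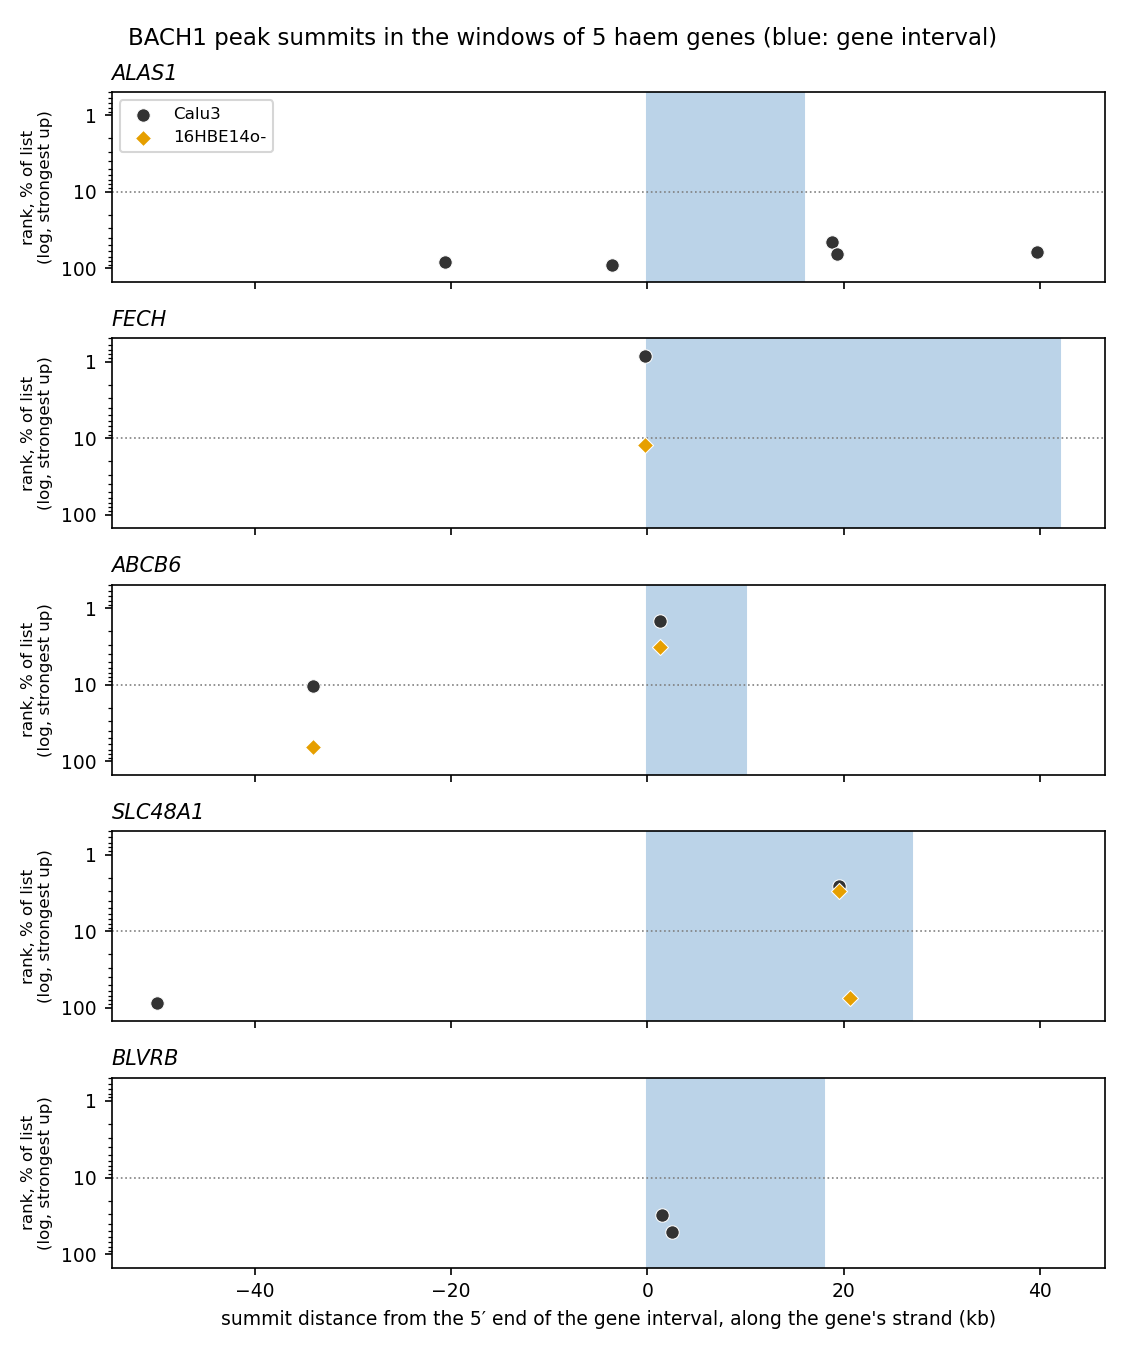
Position and rank of each BACH1 summit in the windows of the 5 genes. The horizontal axis is the distance from the 5′ end of the gene interval in kb, the vertical axis is the rank as a percentage of the list on a log scale with the strongest at the top, the blue band is the gene interval and the dotted line marks 10%; FECH, ABCB6 and SLC48A1 have a black (Calu3) and an orange (16HBE14o-) point at the same place near the top, while ALAS1 and BLVRB have black points alone, between 31.0% and 91.2%.

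Ranks below run from 1 for the highest value in the signal column. That column is a fold enrichment in Calu3 and a peak signal on an unstated scale in 16HBE14o-, so values are read only against their own list. The median fold enrichment of all Calu3 rows was 4.13 and the highest 53.0. In 16HBE14o- the median peak signal was 30.1 and the highest 366. Read depth is unknown. The lists also differ in their value columns and row widths, so peak calling cannot be told apart from the line. Gene intervals were taken as the windows less 50 kb on each side, which places gene ends to about 1 kb, or about 2 kb for SLC48A1.

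Synthesis begins with ALAS1, the housekeeping 5-aminolevulinate synthase that catalyses the rate-limiting step of haem formation outside red cells. Its window on chromosome 3 (52182000 to 52298000) held 5 Calu3 rows, the most of any of the 5 genes over the whole list, and no 16HBE14o- row. Of these rows 3 had a q under 0.05, and 1 was in the upper 50% of the list by fold enrichment, where ABCB6 had 2. None of the 5 summits lay inside the gene interval. The strongest, chr3:52250699-52250911, had a fold enrichment of 4.37 and rank 4695 (45.8% of the list). Its summit was 2.8 kb past the 3′ end of ALAS1, with a −log10 q of 2.84. Only 468 bp from it was the summit of chr3:52251135-52251402, with a fold enrichment of 3.51 and rank 6707. These close neighbours were thus both of middling to low rank.

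The other 3 ALAS1 rows were farther down or farther out. The row at chr3:52271572-52271730 had a fold enrichment of 3.67 and rank 6236, with its summit 23.7 kb past the 3′ end. Upstream, chr3:52228408-52228604 had its summit 3.6 kb from the 5′ end of ALAS1, a fold enrichment of 2.63 and rank 9347. The row at chr3:52211297-52211449 lay 20.6 kb upstream, with a fold enrichment of 2.90 and rank 8551. Both upstream rows missed a q of 0.05, with −log10 q values of 0.00 and 0.29, so the row nearest to the start of ALAS1 was also the weakest of the 5. The nearest 16HBE14o- summit to any of them was 369.2 kb away. RefSeq places 5 other protein-coding genes within 50 kb of ALAS1 on GRCh38 (POC1A, TLR9, TWF2, PPM1M and WDR82), and TLR9 and TWF2 are the next ones on its 3′ side. A row outside the gene interval therefore cannot be assigned to ALAS1 by position.

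FECH encodes ferrochelatase, which inserts ferrous iron into protoporphyrin IX in the last step of synthesis. BACH1 bound at its 5′ end in both lines. The Calu3 row, chr18:55253818-55254426, had a fold enrichment of 24.7, rank 87 (0.849% of the list) and a −log10 q of 91.17. The 16HBE14o- row, chr18:55254074-55254313, had a peak signal of 60.9 and rank 421 (12.3% of the list). Their summits were 19 bp apart and 0.2 kb from the 5′ end of the gene interval, a distance too small to say on which side of the start they lay. Each was the single row of its list in the 142 kb window (55162000 to 55304000 on chromosome 18). RefSeq places 1 other protein-coding gene, NARS1, within 50 kb of FECH on GRCh38, on its 5′ side. By −log10 q the Calu3 row stood at 1.43% of the list. By fold enrichment FECH had the best Calu3 rank of the 5 genes, a place that ABCB6 took by −log10 q, and it had the poorest 16HBE14o- rank among the 3 genes bound there, but ranks in lists of different length and scale show no change in binding.

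Because the summits lay within 1 kb of the start of FECH, its promoter is shown, from 250 bases before to 50 bases after the start, as RefSeq gives it on GRCh38.p14 (chr18:57586653-57586952, minus strand, written 5′ to 3′ on the strand of the gene). This is another build than that of the peaks, so the summit was not placed on it. The promoter of ABCB6 (chr2:219218909-219219208 on GRCh38.p14, minus strand) is set beside it because its shared site also lay close to the 5′ end. The ABCB6 summit was 1.3 kb inside the gene interval, beyond the 50 bases shown after the start. The 2 promoters shown are also those of the 5 with a motif match. That of BLVRB, with a Calu3 row 1.5 kb inside, is not shown. Capitals mark matches to the antioxidant response element core.

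FECH: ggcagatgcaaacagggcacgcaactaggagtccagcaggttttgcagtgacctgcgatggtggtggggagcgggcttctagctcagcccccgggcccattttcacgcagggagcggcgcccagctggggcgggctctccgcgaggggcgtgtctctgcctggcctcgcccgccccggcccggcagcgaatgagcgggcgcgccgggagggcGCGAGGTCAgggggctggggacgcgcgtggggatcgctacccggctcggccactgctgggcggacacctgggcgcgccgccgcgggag
ABCB6: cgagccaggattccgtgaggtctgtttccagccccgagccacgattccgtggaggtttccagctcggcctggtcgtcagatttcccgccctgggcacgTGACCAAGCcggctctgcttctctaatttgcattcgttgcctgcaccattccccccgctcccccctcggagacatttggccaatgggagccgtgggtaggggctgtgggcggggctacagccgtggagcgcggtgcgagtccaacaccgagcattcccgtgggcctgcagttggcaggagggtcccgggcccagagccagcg

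All 5 genes had a promoter in the RefSeq table, and each was searched on both strands for 3 motifs. These were the full CNC-small MAF element (by its name alone, an AP-1 site with flanking bases), the antioxidant response element core TGACNNNGC and the AP-1 site TGAGTCA. They overlap: the full element contains the AP-1 site, and its reverse complement holds the core. FECH had 1 match to the core, GCGAGGTCA, which is the core read on the opposite strand, beginning 38 bases before the start. ABCB6 had 1 match, TGACCAAGC on the strand of the gene, beginning 152 bases before the start. The core occurs in 13.3% of all 35116 promoters of this length, so a match in 2 of 5 promoters describes these sequences and identifies no bound site. The full element occurs in 0.154% and the AP-1 site in 4.95% of all promoters, and neither was found in the promoters of these 5 genes. SLC48A1, BLVRB and ALAS1 had no match to any of the 3 motifs between 250 bases before and 50 bases after the start.

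Among the transporters, ABCB6 is an ATP-binding cassette protein associated with the movement of porphyrins across membranes. It had 2 sites, and both were found in both lines. The first lay inside the gene interval, 1.3 kb from the 5′ end. Its Calu3 row, chr2:220082404-220082977, had a fold enrichment of 21.4, rank 153 (1.49% of the list) and a −log10 q of 103.95, the highest of the 12 Calu3 rows. Its 16HBE14o- row, chr2:220082579-220082818, had a peak signal of 106 and rank 109 (3.19%), with the summits 28 bp apart. The site was thus among the strongest few percent of either list.

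The second ABCB6 site lay 34.1 kb upstream of the 5′ end. In Calu3, chr2:220117890-220118255 had a fold enrichment of 10.0 and rank 1080 (10.5% of the list). In 16HBE14o- the row chr2:220117950-220118189 had a peak signal of 26.4 and rank 2250 (65.9%), and the summits were 34 bp apart. This site was in the upper part of the Calu3 list and the lower part of the other. Of the 5 windows that of ABCB6 is the most crowded: RefSeq lists 11 other protein-coding genes within 50 kb on GRCh38, and ATG9A and ANKZF1 follow directly on the 5′ side. The upstream site therefore has other genes as neighbours and was not assigned to ABCB6.

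SLC48A1, also called HRG1, is the transporter that brings haem from endosomes and lysosomes into the cytosol. Its strong site lay inside the gene interval in both lines, 19.5 kb from the outer 5′ end and 7.5 kb before the 3′ end. The Calu3 row, chr12:48169196-48169680, had a fold enrichment of 18.0, rank 261 (2.55% of the list, or 4.69% by −log10 q) and a −log10 q of 51.23. The 16HBE14o- row, chr12:48169348-48169587, had a peak signal of 111 and rank 102 (2.99%). With summits 15 bp apart, this was the closest pair of the shared sites, and SLC48A1 had the best 16HBE14o- rank of the 5 genes. On GRCh38 the start that the RefSeq promoter table gives for SLC48A1 lies 19.3 kb inside the outer 5′ end of the gene, so the annotation holds more than 1 start, and the distance to the start in use in these cells was not measured. The distances of the site are on hg19, from an interval known to about 2 kb, so the site was not placed against that inner start. RAPGEF3 and HDAC7 overlap SLC48A1 in that annotation.

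A further 16HBE14o- row, chr12:48170492-48170731, had its summit 1144 bp from the strong SLC48A1 site, with a peak signal of 24.7 and rank 2566 (75.1%). No Calu3 row met it, and the nearest Calu3 summit was that of the strong site, 1159 bp away. The remaining Calu3 row of this window, chr12:48099917-48100077, had a fold enrichment of 2.77, rank 8913 and a −log10 q of 0.29, which misses a q of 0.05. Its summit lay 50 kb upstream of SLC48A1 and 6 bp inside the edge of the window, so it counts through the exact place of that edge. The nearest row outside any window was a Calu3 row near BLVRB, with a fold enrichment of 2.50 and rank 9586, whose summit was 3.5 kb beyond the edge.

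Breakdown is represented by BLVRB, an NADPH-dependent reductase that acts on flavins and on some forms of biliverdin. Its window on chromosome 19 (40904000 to 41022000) held 2 Calu3 rows, both inside the gene, and no 16HBE14o- row. The row nearer to the 5′ end, at 1.5 kb, was chr19:40970335-40970630, with a fold enrichment of 5.49, rank 3179 (31.0% of the list) and a −log10 q of 15.38. The other, chr19:40969387-40969687, lay 2.5 kb inside, with a fold enrichment of 4.09, rank 5220 and a −log10 q of 3.36. The summits were 935 bp apart. By −log10 q in place of fold enrichment, the stronger BLVRB row moved up to rank 1952 (19.1%). The nearest 16HBE14o- summit was 202.0 kb away.

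**Figure D2:**
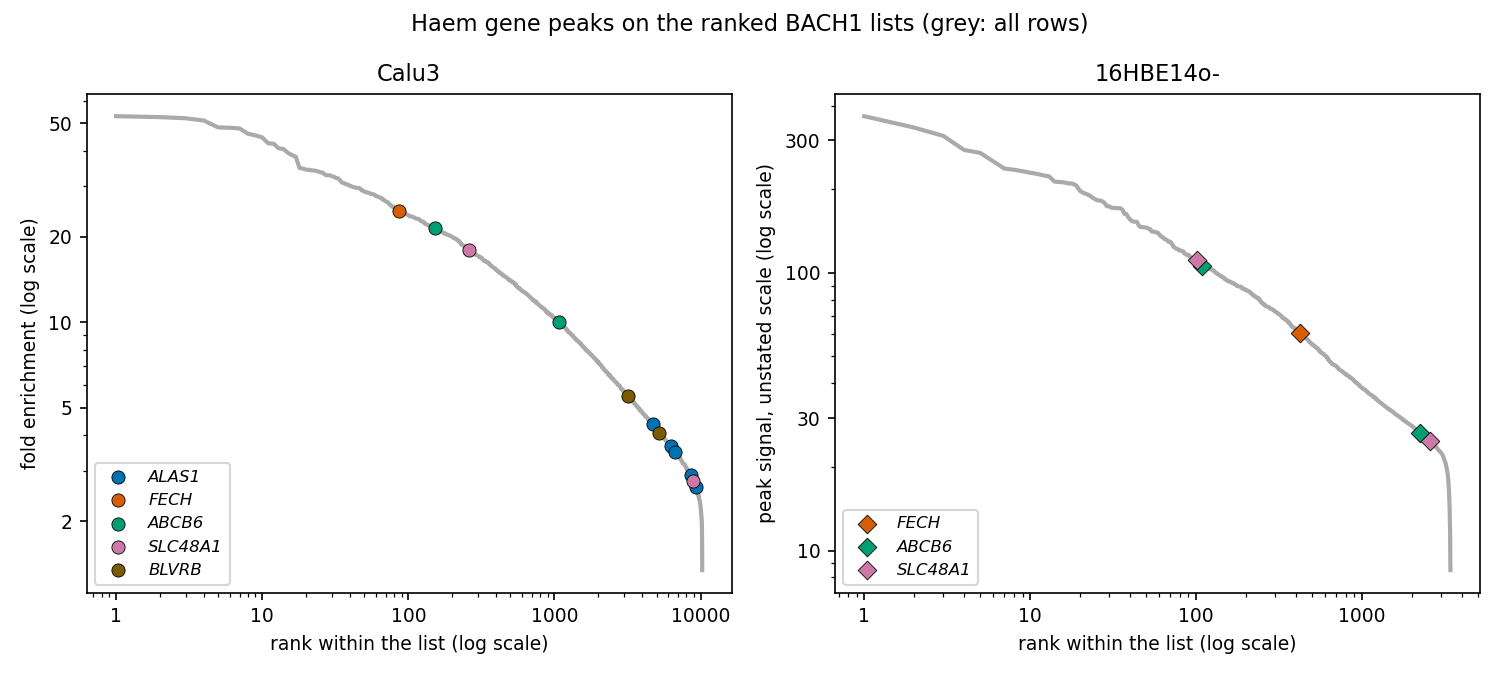
The rows of the 5 genes on the ranked lists, with rank on the horizontal and the deposited signal on the vertical axis, both on log scales, and all rows of the list as a grey line. In Calu3 the strong sites of FECH, ABCB6 and SLC48A1 have ranks 87, 153 and 261 and the rows of BLVRB and ALAS1 begin at ranks 3179 and 4695; in 16HBE14o- SLC48A1 and ABCB6 lie side by side at ranks 102 and 109.

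Rows of these windows occurred in both lines as follows. In 16HBE14o-, 4 of the 5 rows (80.0%, 95% exact interval 28.4 to 99.5) met a Calu3 row by at least 1 bp, against 46.4% of the whole list (95% exact interval 44.7 to 48.1). In Calu3, 4 of the 12 rows (33.3%, 95% exact interval 9.92 to 65.1) met a 16HBE14o- row, against 15.3% of the whole list (95% exact interval 14.6 to 16.1). Both intervals of the haem gene rows include the share of their whole list. They cover counting error only, and rows near 1 gene are not independent.

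The share found in both lines differed with rank, so each row is set against rows of like rank. In the strongest decile of the lists, where the SLC48A1 site and the ABCB6 site inside the gene fall in both lines, 53.5% of Calu3 rows and 93.3% of 16HBE14o- rows were shared. The FECH site falls in the strongest decile of Calu3 and in the second decile of 16HBE14o-, where 80.9% of rows were shared. The upstream ABCB6 site was shared although it lay in deciles where 28.5% (Calu3) and 31.9% (16HBE14o-) of rows were. The unshared SLC48A1 rows lay in deciles where 4.49% (Calu3) and 25.5% (16HBE14o-) of rows were shared. The BLVRB rows lay in deciles of the Calu3 list where 14.1% and 9.33% of rows had a counterpart, and the ALAS1 rows in deciles where between 4.49% and 8.70% had one. Having no 16HBE14o- counterpart was therefore the usual state of Calu3 rows of the rank seen at BLVRB and ALAS1, and at unknown depth it does not show that BACH1 was absent there.

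**Figure D3:**
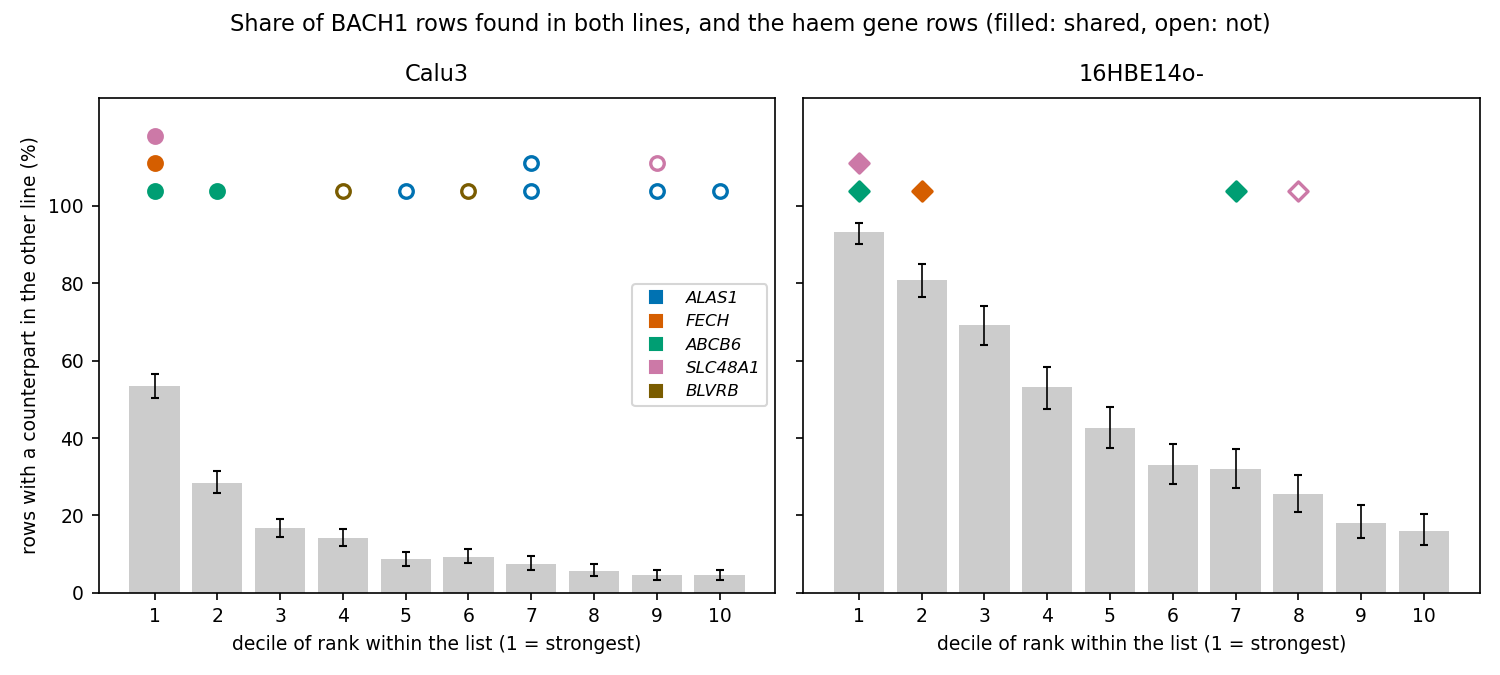
Percentage of rows with a counterpart in the other line, by decile of rank within each list (1 is the strongest), as grey bars with 95% exact intervals. The markers above the bars show the decile that holds each row of the 5 genes, filled when shared and open when not; the filled Calu3 markers lie in deciles 1 and 2 and the open ones in deciles 4 to 10.

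At the 4 shared sites the 240 bp row of 16HBE14o- lay wholly inside the wider Calu3 row. The Calu3 rows were 609 bp wide at FECH, 574 bp at the ABCB6 site inside the gene, 485 bp at SLC48A1 and 366 bp at the upstream ABCB6 site. The median width of all Calu3 rows was 235 bp, and 98.4% of the 16HBE14o- rows had the same width of 240 bp, so widths were not compared between the lines. The summit distances, 15 to 34 bp, can be read against a median of 19.0 bp (interquartile range 9 to 36) over all shared 16HBE14o- rows. The 4 distances lie within that interquartile range, with 28 and 34 bp at the ABCB6 sites above the median. Under a reciprocal overlap of 50% only the upstream ABCB6 site counted as shared, since the other 3 Calu3 rows were 2.02 to 2.54 times as wide as their counterparts.

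**Figure D4:**
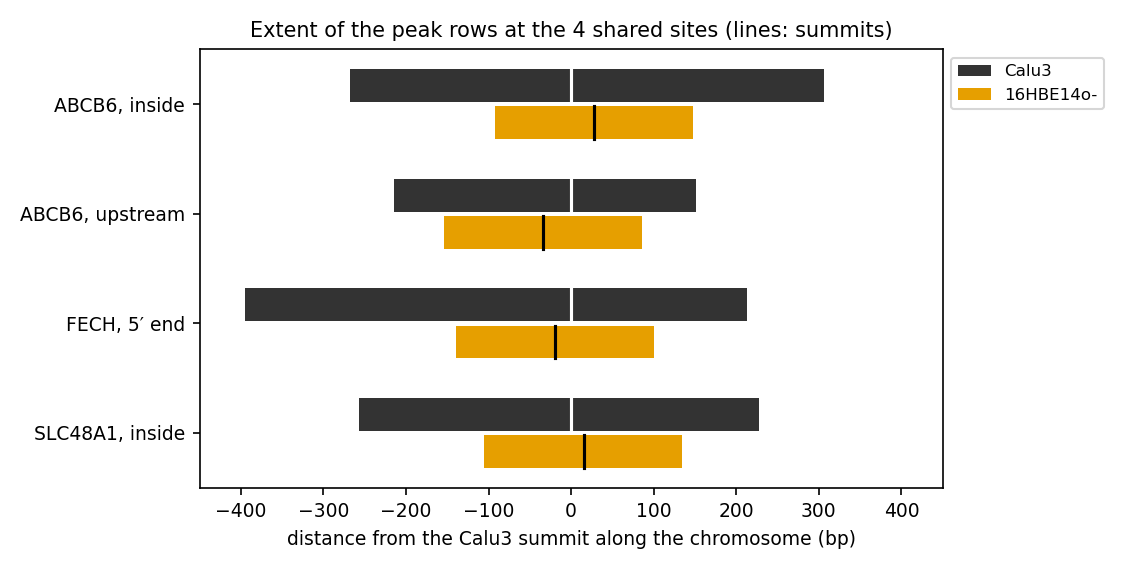
Extent of the Calu3 row (black) and the 16HBE14o- row (orange) at the 4 shared sites, in bp from the Calu3 summit along the chromosome, with vertical lines at the summits. Each orange bar lies within its black bar, and the summits are 15 to 34 bp apart.

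In Calu3, 3 of the 12 rows, 2 near ALAS1 and 1 near SLC48A1, had a deposited q of 0.05 or more, against 26.7% of the whole list. None of these 3 was inside a gene interval or shared. For 16HBE14o- the authors deposited no p or q that could be read. The score in the place of q stood at its highest value, 3.34, for the strong sites of FECH, ABCB6 and SLC48A1, as it did for 30.9% of the list, and at 1.40 and 1.19 for the upstream ABCB6 row and the second SLC48A1 row. The ranking by signal is therefore finer than that score allows among the strong sites.

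**Figure D5:**
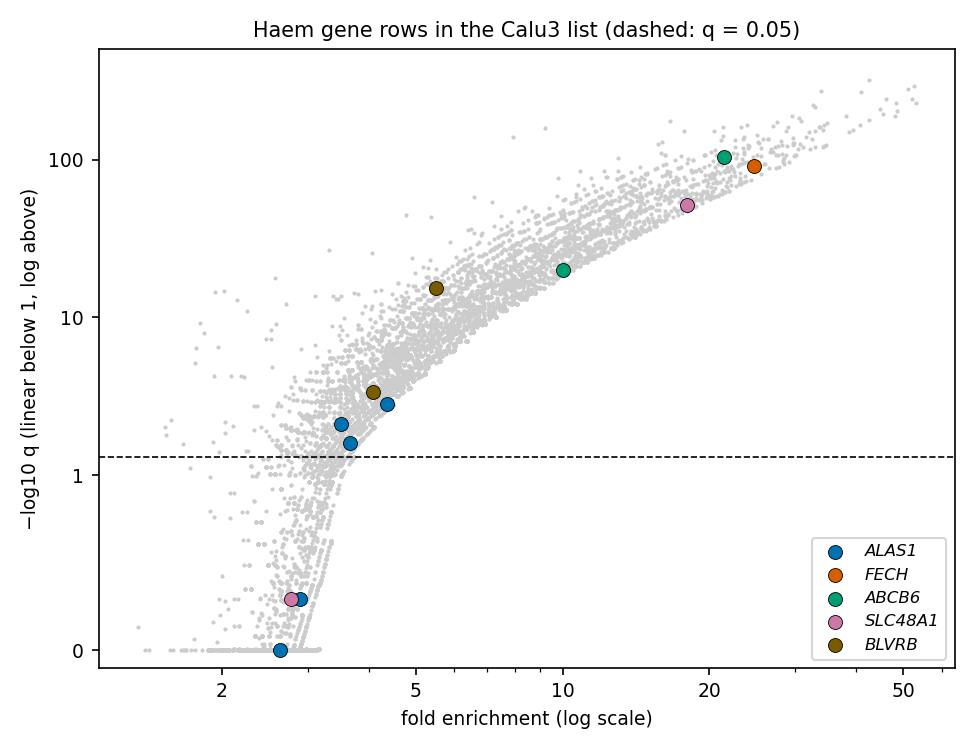
Fold enrichment (log scale) against −log10 q (linear below 1, log above) of all Calu3 rows in grey, with the 12 rows of the 5 genes in colour and a dashed line at a q of 0.05. The 3 strong sites are at the upper right, with −log10 q from 51.23 to 103.95, and 3 rows, of ALAS1 and SLC48A1, lie under the line.

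Some of the rows stood in close groups. The summits of both BLVRB rows, of 2 ALAS1 rows and of both 16HBE14o- rows at SLC48A1 had a neighbour of the same list within 2 kb, which is 4 of 12 rows in Calu3 and 2 of 5 in 16HBE14o-. Over the whole lists 9.32% of Calu3 rows and 7.44% of 16HBE14o- rows had such a neighbour. Every row of a close group is counted, here and in the whole lists. The rows are therefore not independent, and no difference was tested. The FECH and ABCB6 rows had none, and the nearest Calu3 summit to that of FECH was 140.7 kb away.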

How the data were processed

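BACH1 ChIP-seq was made in 2 lines with 2 replicates each, and the authors deposited 1 peak list per line that pools the replicates by IDR, per the labels. The submitters' processing notes name hg19 as the build, as does the 16HBE14o- header. Aligner, peak caller and control are not named in the sources used here. The Calu3 values that the authors deposited are, by the file format and their range, a fold enrichment (ratio), a −log10 p and a −log10 q for each peak. For 16HBE14o- they deposited a peak signal on an unstated scale and, in the place of the q, a score that goes below 0. A browser score was deposited in both lists and not used. All such values are the authors' own and served to rank rows within their list, with equal values given the best rank.

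The members and lists were chosen with earlier results of these data known. All 5 genes are described, every row in their windows is accounted for, and the strongest row per gene and line is given in full. A row was shared when it overlapped a row of the other list by 1 bp or more. Tiles of 120 kb ran from the first to the last summit of each chromosome that both lists hold. Coordinates are 1-based. Gene intervals, inferred from the windows, differed from RefSeq gene lengths on GRCh38.p14 by 0.0 to 1.8 kb. That annotation gave only names, strands, neighbours and promoters, all 5 genes matching by symbol. Other genes of the pathway, and motifs in the peaks, need an hg19 annotation or genome and were not analysed here. Intervals are exact (Clopper-Pearson). The tools were pandas 2.3.3, scipy 1.17.1 and numpy 2.4.6 under Python 3.11.15, and the overlap, ranking and merging steps were tested on simulated lists. Alternatives changed the window, the list, the overlap rule, the ranking column and the merging of overlapping rows.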

Additional observations from a re-analysis of the deposited data

How the results depend on the processing

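The rows in the windows numbered 12 in Calu3 and 5 in 16HBE14o-. In the upper 50% of each list by signal 6 and 3 were left, since fewer rows were counted. Without Calu3 rows of q 0.05 or more, 9 remained in Calu3, and the 4 shared sites were kept. The Calu3 rows near ALAS1 went from 5 to 3 without those rows and to 1 in the upper 50%, where ABCB6, with 2, had the most; SLC48A1 went from 2 to 1 under both, and BLVRB from 2 to 1 in the upper 50%. In 16HBE14o- the upper 50% took SLC48A1 and ABCB6 from 2 to 1 each. With 25 kb on each side of the gene, 10 Calu3 and 4 16HBE14o- rows were left. SLC48A1 in Calu3 and ABCB6 in both lines then went from 2 to 1, which drops the shared ABCB6 site 34.1 kb upstream. The numbers of rows, 12 and 5, stayed within 1.5 times under the 4 alternatives other than the upper 50%. The 4 shared rows in each line became 1 in each with a reciprocal overlap of 50%, for the widths given above, and stayed within 1.5 times under the other 3 alternatives. Ranked by −log10 p or by −log10 q, the strongest Calu3 rows moved from 2.55% to 4.69% of the list for SLC48A1, from 0.849% to 1.43% for FECH, from 31.0% to 19.1% for BLVRB, from 45.8% to 56.1% for ALAS1 and from 1.49% to 1.07% for ABCB6; both columns gave the same percentages. ABCB6 thus took the first place of the 5 genes from FECH. By the score in the place of q, the strongest 16HBE14o- rows of SLC48A1, FECH and ABCB6 tied for rank 1 (0.0293% of the list) with 1055 rows in all, so it does not order them. The column for p holds no value in 16HBE14o- and gave no rank. Merging overlapping rows left the Calu3 list at 10246 rows, so it could not change any Calu3 rank. In 16HBE14o- it left 3393 rows, and SLC48A1, FECH and ABCB6 kept ranks 102, 421 and 109. No paired analysis was possible because the replicates of a line were pooled into its list, which leaves no replicate to block on or to leave out. Read depth is not known, so a site missing from 1 list may have been bound below what that list could show. The lists were also not produced in the same way: 98.4% of 16HBE14o- rows but 0.478% of Calu3 rows are 240 bp wide, and their value columns differ. Counts and shared rows therefore cannot be told apart from such a difference, which was not tested.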

Other observations

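Outside the windows, 3 rows had their summit within 60 kb of an edge. The one with the best rank was a Calu3 row at chr18:55113269-55113788, with a fold enrichment of 20.8 and rank 170. Its summit was 48.5 kb beyond the FECH window and 98.5 kb past the 3′ end of FECH, and no 16HBE14o- row met it. It was singled out after its value was seen. In 16HBE14o- a row at chr2:220143937-220144176, with a peak signal of 24.0 and rank 2727, lay 10.1 kb beyond the ABCB6 window, and no Calu3 row met it.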
